A study of Mus musculus with 66 samples.

Results

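Iron in a mammalian cell is taken up, stored, exported and released from heme by a small set of proteins, and 8 genes of this set were followed here in C2C12 cells, a mouse myoblast line: Ftl1, Fth1, Tfrc, Slc11a2, Slc40a1, Ireb2, Aco1 and Hmox1. They were picked by gene symbol from the 22489 genes of the mRNA-Seq table, and all 8 were above 0 in each of the 20 libraries. Their levels in cells without a transgene (WT) had been seen when the genes were picked, so WT values are described and not tested. The study expressed mouse histone H3 variants in C2C12 cells, and the mRNA-Seq asked how each variant affected gene expression before and after differentiation. There were 9 GFP-H3 lines, each with a doxycycline-inducible transgene (Tet-On) for 1 variant with GFP at its amino-terminal side, brought in with a transposon, and GFP-positive cells were collected by sorting after growth in doxycycline and G418. The variants were H3.1, H3.2 and H3t, which are of the H3.1/H3.2 type in sequence, while H3.3 and the H3mm variants 7, 11, 12, 13 and 16 (H3mm7 to H3mm16) are of the H3.3 type. WT cells had no transgene, and whether they were given doxycycline is not stated. Growing cells were kept in 20% fetal bovine serum and harvested before confluence, and differentiated cells had spent 48 h in 2% horse serum. The states thus also differ in serum and confluence, whose effects cannot be told apart from those of differentiation. Each line and WT gave 1 library in each state, so no line has a replicate of its own, and every p-value below measures the spread between lines. The columns headed H3mmT were taken as the H3t line.

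Ferritin is a shell of H and L subunits that stores iron. Fth1 encodes the H subunit, which oxidizes iron, and Ftl1 the L subunit, which helps to lay down the mineral core. Tfrc encodes the transferrin receptor, Slc11a2 the ferrous iron transporter DMT1, and Slc40a1 the exporter ferroportin. Aco1 and Ireb2 encode the iron regulatory proteins IRP1 and IRP2, which bind iron responsive elements (IREs) in mRNA when iron is scarce. Binding in a 5′ UTR blocks translation, and binding in a 3′ UTR protects the mRNA from decay. Hmox1 encodes heme oxygenase 1, which opens the heme ring and frees its iron. Myoblasts that differentiate leave the cell cycle, fuse and make myoglobin, a heme protein.

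The elements below are shown because IREs are the sequences through which IRP1 and IRP2 act on these mRNAs. The annotated mRNAs of the 8 genes were searched on their own strand for a C, any 5 bases, the loop CAGTGN and 5 more bases, where the 5 before the loop had to pair with the 5 after it (G with T allowed). It was found 7 times in 4 genes: once in the 5′ UTR of Ftl1, Fth1 and Slc40a1, and 4 times in the 3′ UTR of Tfrc. For comparison, only the longest coding transcript of each of 10150 expressed genes, the 8 included, was searched. Of these, 0.0985% held the element in the 5′ UTR and 0.759% in the 3′ UTR. The elements are given 5′ to 3′ in mRNA sense with 5 more bases at each end, with the loop in capitals.
Ftl1: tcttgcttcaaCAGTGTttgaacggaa
Fth1: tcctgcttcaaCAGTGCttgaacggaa
Slc40a1: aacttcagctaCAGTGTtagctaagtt
Tfrc 1: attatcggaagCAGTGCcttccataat
Tfrc 2: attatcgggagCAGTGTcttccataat
Tfrc 3: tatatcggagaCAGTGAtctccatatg
Tfrc 4: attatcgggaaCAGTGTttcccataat
In mm9 they lie at chr7:52715150-52715176 (minus strand) for Ftl1, chr19:10057223-10057249 (plus) for Fth1 and chr1:45982311-45982337 (minus) for Slc40a1. Those of Tfrc are at chr16:32631306-32631332, chr16:32631685-32631711, chr16:32631750-32631776 and chr16:32631797-32631823 (plus). The elements of the ferritin genes had 25 of 27 bases in common, while that of Slc40a1 shared 13 of 27 with either. No match in Slc11a2, Ireb2, Aco1 or Hmox1 says only that these letters were not found in the transcripts searched. The FPKM values below are mRNA levels, so control of translation through a 5′ element would not be seen in them.

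Ftl1 differed from the other genes in how often its sequence occurs in the genome. Of the 31-base words in its exons, 19.9% occurred once in mm9, against a median of 99.7% over 10149 expressed genes, and 1.54% of these genes were as low as Ftl1 or lower. Its mRNA (968 bases, gene at chr7:52713314-52715254) had 7 near copies elsewhere, counted as 1 alignment of at least 90% identity over at least 50% of the mRNA. The closest, at 99.57% identity, was at chr13:74543845-74544766, where the annotation places Gm10116, and one at 99.03% was at chr4:125181324-125182246, where it places Ftl2 as a pseudogene. Fth1 (866 bases, chr19:10057193-10059582) had 0 such copies and 78.7% of words found once. The other 6 genes had 0 copies and 97.1% to 100% of words found once. By default Cufflinks divides a read equally among its places, and how many places the mapping kept is not given in the sources used here, so the level of Ftl1 is uncertain.

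The libraries were those of muscle cells. All 7 markers of differentiated muscle were called higher after differentiation, and their summed level went from between 3.77 and 84.0 FPKM in growth to between 3256 and 17092 FPKM in the 9 lines. Myod1, a myoblast factor, was between 1.61 and 110 FPKM in growth, while Pax7 stayed under 1 FPKM. Summed markers of macrophages reached 4.05 FPKM, those of red cells 0.691 FPKM and those of hepatocytes 0.213 FPKM, and Emr1 and Hbb-b1 were listed at 0 in every library. In a bulk library, fewer cells of a kind and less RNA per cell cannot be told apart.

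**Figure D1:**
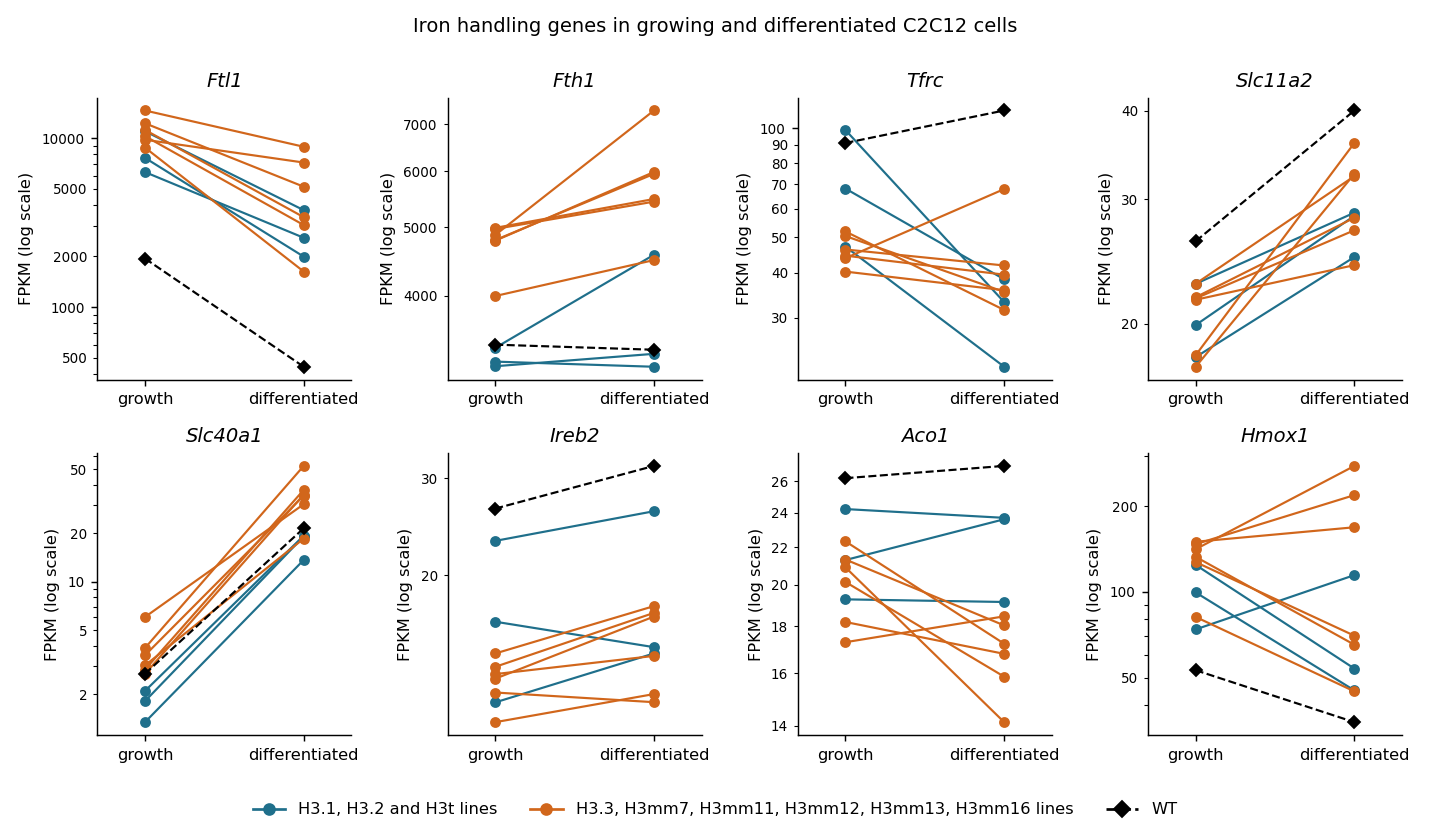
FPKM (log axis) of the 8 genes in growth and after differentiation, with each line joined across states, coloured by type of H3 transgene, and WT in black diamonds. Ftl1 falls in all 9 lines, Slc40a1 climbs from at most 6.04 to at least 13.6 FPKM, and WT is below all lines for Ftl1 and Hmox1 and above all lines for Slc11a2, Ireb2 and Aco1.

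Ferritin transcripts were among the most abundant of the cell. FPKM is per length of transcript, so levels of different genes can be set side by side, except that the place of Ftl1 rests on its uncertain level. In growing lines the median level was 10260 FPKM for Ftl1, 4785 for Fth1, 127 for Hmox1, 47.2 for Tfrc, 21.6 for Slc11a2, 20.9 for Aco1, 13.2 for Ireb2 and 2.85 for Slc40a1. Ftl1 lay above Fth1 without overlap, Hmox1 overlapped Tfrc, the trio of Slc11a2, Aco1 and Ireb2 overlapped, and Slc40a1 was below all others. Ftl1 was the gene with the highest FPKM in 8 of 9 growth libraries and the second in the H3t line. After differentiation the medians ran from 5437 FPKM for Fth1 and 3403 for Ftl1, whose ranges overlapped, to 70.2 for Hmox1, 35.8 for Tfrc, 30.2 for Slc40a1, 28.4 for Slc11a2, 18.05 for Aco1 and 14.8 for Ireb2. Slc40a1 moved from the last place to the fifth, with a range that overlapped those of Hmox1, Tfrc, Slc11a2, Aco1 and Ireb2.

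The first comparison set the 9 differentiated against the 9 growth libraries with limma on log2(FPKM + 1), and calls were made at an adjusted p (Benjamini-Hochberg) under 0.05. The libraries of a line were not paired in this fit, and pairing them as a block was an alternative. Of 10931 genes tested, 61.7% were called, 32.0% higher and 29.7% lower, so a call alone is common. Of the 8 genes, Slc40a1 and Slc11a2 were called higher and Ftl1 and Tfrc lower. The median difference over the 8 was 0.00 on the log2 scale and over all genes 0.04. When the difference also had to reach 1 in log2 units, which 17.4% of genes met, Slc40a1 and Ftl1 remained.

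Storage of iron was described by the ferritin pair. Ftl1 was between 6288 FPKM in the H3t line and 14552 FPKM in the H3mm7 line in growth, with a median of 10260. After differentiation it was between 1622 FPKM (H3mm12) and 8879 FPKM (H3mm7), with a median of 3403. It was lower after differentiation in 9 of 9 lines, although the ranges of the states overlapped because H3mm7 and H3mm11 (7161 FPKM) stayed high. Over all genes, 22.6% were lower in 9 of 9 lines. Ftl1 fell by 1.45 on the log2 scale (SE 0.28, 95% interval -2.03 to -0.87, adjusted p = 0.00015), and the decline within a line was from 1.36-fold in H3mm11 to 5.41-fold in H3mm12.

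Fth1 did not share this change. Its level was between 3174 FPKM (H3t) and 4990 FPKM (H3mm13) in growth, with a median of 4785. After differentiation it was between 3169 FPKM (H3.1) and 7324 FPKM (H3mm12), with a median of 5437. It was higher in 8 of 9 lines by a small amount, with H3.1 as the exception, and the ranges overlapped. The log2 difference of 0.24 (95% interval -0.10 to 0.58) did not pass the test (adjusted p = 0.216). When the 2 libraries of a line were paired as a block it did (adjusted p = 0.0274), while quantile normalization gave -0.04.

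The ratio of Ftl1 to Fth1 followed from both, so the ratio and the summed level below are as uncertain as the level of Ftl1. It was between 1.80 and 3.40 in growing lines and between 0.221 and 1.49 after differentiation, lower in 9 of 9 lines and below 1 in 5 of them. The line with the lowest ratio after differentiation was H3mm12, which had the lowest Ftl1, the highest Fth1 and the highest summed muscle markers (17092 FPKM). The line with the highest ratio was H3mm7. The summed FPKM of the ferritin genes was 1.53% to 2.84% of all FPKM in growth and 1.00% to 1.75% after differentiation.

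The mRNAs of both transporters, for export and for ferrous iron, were higher in differentiated cells. Slc40a1 in growth was between 1.35 FPKM (H3.2) and 6.04 FPKM (H3mm7), with a median of 2.85. After differentiation it was between 13.6 FPKM (H3.2) and 52.3 FPKM (H3mm11), with a median of 30.2. The states did not overlap, with the differentiated cells higher, which held for 11.4% of all genes. Slc40a1 rose by 2.85 on the log2 scale (SE 0.23, 95% interval 2.36 to 3.34, adjusted p = 3.09e-09), which was 5.01-fold to 13.5-fold of FPKM within lines.

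Slc11a2 moved less. It was between 17.4 FPKM (H3.3) and 22.8 FPKM (H3mm12) in growth and between 24.2 FPKM (H3mm16) and 36.0 FPKM (H3mm7) after differentiation, with medians of 21.6 and 28.4. The states did not overlap, with the differentiated cells higher, as in 11.4% of genes. The change was upward in 9 of 9 lines, as was so for 23.8% of genes, from 1.12-fold in H3mm16 to 2.00-fold in H3mm7. The log2 difference was 0.49 (SE 0.09, 95% interval 0.31 to 0.67, adjusted p = 5.87e-05).

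The mRNA of the transferrin receptor was lower in most lines. Tfrc was between 40.3 FPKM (H3.3) and 98.9 FPKM (H3t) in growth, with a median of 47.2, and between 22.01 FPKM (H3.1) and 68.0 FPKM (H3mm7) after differentiation, with a median of 35.8. It was lower in 8 of 9 lines, and in H3mm7 it went from 43.8 to 68.0 FPKM. Tfrc fell by 0.50 on the log2 scale (SE 0.18, 95% interval -0.88 to -0.12, adjusted p = 0.0219). This call rested on few lines, since leaving out H3t gave -0.37 (adjusted p = 0.0636), leaving out H3.2 -0.46 (adjusted p = 0.0548) and leaving out H3mm11 -0.47 (adjusted p = 0.0511), and without a filter on low genes the adjusted p was 0.0518. With WT added, in which Tfrc went from 91.1 to 112 FPKM, the difference was -0.42 and the adjusted p 0.128.

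The mRNAs of the regulators differed little between the states. Ireb2 was between 10.8 FPKM (H3.3) and 23.1 FPKM (H3t) in growth and between 11.8 FPKM (H3mm7) and 26.1 FPKM (H3t) after differentiation, with medians of 13.2 and 14.8. The H3t line was the highest in both states. The log2 difference was 0.16 (95% interval -0.14 to 0.45, adjusted p = 0.343), with an adjusted p of 0.0431 when the libraries of a line were paired as a block. Aco1 was between 17.3 FPKM (H3mm13) and 24.2 FPKM (H3.1) in growth and between 14.1 FPKM (H3mm11) and 23.7 FPKM (H3.1) after differentiation. Its log2 difference was -0.15 (95% interval -0.35 to 0.05, adjusted p = 0.176).

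**Figure D2:**
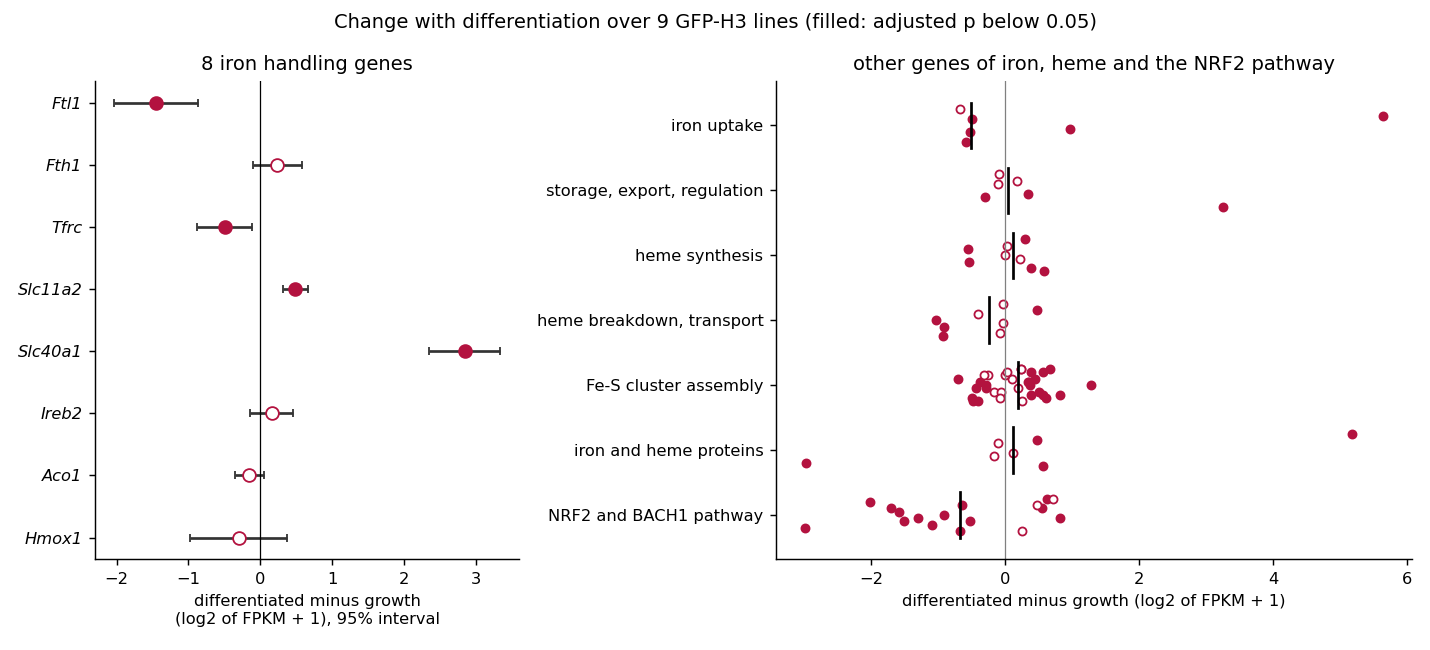
Difference between differentiated and growing cells on the log2(FPKM + 1) scale over 9 lines, for the 8 genes with 95% intervals (left) and for the other tested genes of 7 lists (right, bars at list medians); filled points had an adjusted p below 0.05. Slc40a1 is at 2.85 and Ftl1 at -1.45, and most genes of the NRF2 and BACH1 list are to the left of 0.

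Hmox1 split the lines. In growth it was between 73.8 FPKM (H3.2) and 150 FPKM (H3mm11), with a median of 127. After differentiation it was 276 FPKM in H3mm7, 218 in H3.3, 168 in H3mm11 and 114 in H3.2, and from 44.8 (H3mm12) to 70.2 FPKM (H3mm13) in the other 5 lines. It was thus higher than in growth in 4 lines, from 1.12-fold in H3mm11 to 1.96-fold in H3mm7. In the other 5 it was lower, from 1.81-fold in H3mm13 to 2.31-fold in H3.1. The log2 difference over all 9 was -0.30 (95% interval -0.98 to 0.38, adjusted p = 0.434). The summed level of 12 ER stress genes was between 5619 and 9760 FPKM after differentiation in the same 4 lines and between 1054 and 2355 FPKM in the other 5, with 1135 to 1370 FPKM in growth. The part of ER stress in the Hmox1 values was not tested. Over the 9 lines together, 9 of the 12 ER stress genes were called higher and 0 lower, with a median log2 difference of 1.33. The shares over all genes tested were 32.0% higher and 29.7% lower. Trib3, a pseudokinase induced by stress, rose by 3.2, Dnajb9, a chaperone partner of the ER, by 2.57, Herpud1, a part of ER-associated degradation, by 2.50, and Chac1, a glutathione-cleaving enzyme, by 2.49.

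**Figure D3:**
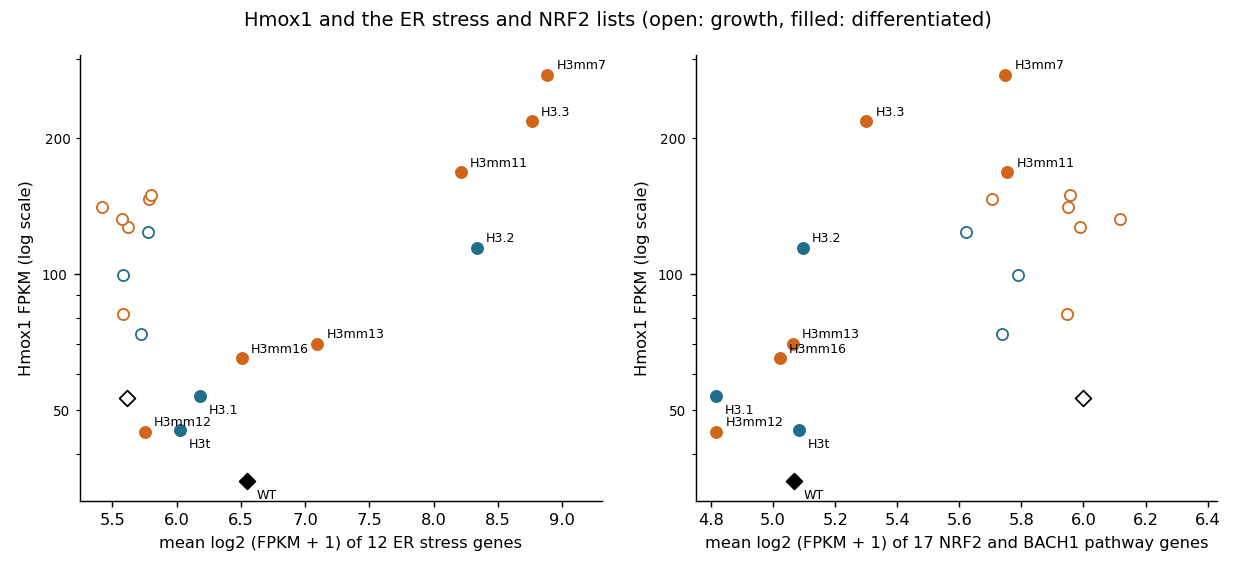
Hmox1 FPKM (log axis) against the mean log2(FPKM + 1) of 12 ER stress genes (left) and of 17 NRF2 and BACH1 pathway genes (right) in each line, with growth open, differentiated filled and WT as diamonds. After differentiation H3mm7, H3.3, H3mm11 and H3.2 have the highest ER stress means and the highest Hmox1, from 114 to 276 FPKM.

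NRF2 activates, and BACH1 represses, ferritin genes and Hmox1, along with genes of glutathione, thioredoxin and NADPH. A list of 17 genes held 11 such genes other than the 8 and 6 factors or their regulators. Of all 17, 11 were called lower after differentiation, 3 higher and 3 did not pass, with a median log2 difference of -0.68. Among all genes tested, 29.7% were called lower and 32.0% higher. Of the 11 without the factors, 9 were lower and 0 higher. Nqo1, a quinone reductase, fell by 2.99, and Gclm, a subunit of the first enzyme of glutathione synthesis, fell by 2.02. G6pdx, an enzyme that makes NADPH, fell by 1.71, and Srxn1, which repairs peroxiredoxins, fell by 1.58. The 3 called higher were all among the factors: Nfe2l2 (NRF2), which rose by 0.62, Bach1, which rose by 0.55, and Mafk, a small MAF partner of both. The summed level of the list stayed highest after differentiation in H3mm11 (2745 FPKM) and H3mm7 (2725 FPKM), the same lines in which Ftl1 was highest, and was 1353 to 2133 FPKM in the other 7. In growth it was 2334 to 3423 FPKM. Its part in the Ftl1 values was not tested.

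The other genes of iron handling are set beside the 32.0% of all genes that were called higher and the 29.7% called lower. Of 6 tested genes in a list of iron uptake and related genes, 2 rose and 3 fell, with a median log2 difference of -0.52. Hfe2, which encodes hemojuvelin, a BMP co-receptor made in skeletal muscle, rose by 5.65, and Mcoln1, a cation channel of lysosomes, by 0.97. Slc39a14, a zinc and iron transporter, fell by 0.59 and Steap2, a metalloreductase, by 0.53. Of 6 tested genes of storage, export and regulation, Cp, the ferroxidase ceruloplasmin, rose by 3.26, from at most 1.35 FPKM in growth to between 1.91 and 34.5 FPKM. Fbxl5, which directs the decay of IRP2, rose by 0.33, and Pcbp1, which brings iron to ferritin, fell by 0.31. The other 3 did not pass, Ncoa4, the receptor for ferritin autophagy, with a difference of -0.10 (adjusted p = 0.412).

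For genes of heme and iron-sulfur clusters, the number called was near the share over all genes (61.7%) in heme synthesis, in cluster assembly and in iron and heme proteins. Of 8 tested genes of heme synthesis, 3 rose and 2 fell, with a median of 0.12. Uros rose by 0.58 and Ppox by 0.38, while Alad fell by 0.54, all enzymes of the pathway. Of 8 tested genes of heme breakdown and transport, 3 fell and 1 rose, with a median of -0.24. The exporter Abcg2 fell by 1.04, the heme transporter Slc48a1 by 0.94 and the biliverdin reductase Blvra by 0.92, and the heme-binding protein gene Hebp1 rose by 0.47. Of 33 genes of mitochondrial iron and iron-sulfur cluster assembly, 14 rose and 8 fell, with a median of 0.20. The co-chaperone gene Hscb rose by 1.28, the scaffold gene Iscu by 0.82 and Isca2 by 0.67. Among 7 tested genes for iron and heme proteins 3 rose and 1 fell, with a median of 0.11. Mb, which encodes myoglobin, rose by 5.17, from at most 0.857 FPKM to between 16.4 and 164 FPKM. Rrm2, the iron-bearing subunit of ribonucleotide reductase used in DNA synthesis, fell by 2.97. Uqcrfs1, the Rieske iron-sulfur protein of the respiratory chain, rose by 0.47.

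The next comparisons asked whether the type of H3 transgene went with the level of these genes, with 6 lines of the H3.3 type against 3 of the H3.1/H3.2 type. In growth, 1.50% of 10607 genes were called, and Fth1 was the only one among the 8. Fth1 was 3174, 3223 and 3371 FPKM in the H3t, H3.1 and H3.2 lines and between 3993 (H3.3) and 4990 FPKM (H3mm13) in the 6 others. The types did not overlap, with the H3.3 type higher, as was so for 5.95% of genes. The log2 difference was 0.54 (SE 0.10, 95% interval 0.32 to 0.75, adjusted p = 0.0258). The call was lost, with the difference between 0.52 and 0.56, when H3.2 (adjusted p = 0.0822), H3t (0.0807), H3mm13 (0.0726), H3mm16 (0.0625), H3mm12 (0.0563) or H3mm11 (0.0517) was left out, and without a filter on low genes (0.0676).

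Slc40a1 in growth was between 1.35 and 2.10 FPKM in the H3.1/H3.2 type and between 2.68 and 6.04 FPKM in the H3.3 type. The types did not overlap here either, with the H3.3 type higher, as in 5.95% of genes. The log2 difference of 0.73 (95% interval 0.30 to 1.16) did not pass the test over all genes (adjusted p = 0.0933). Tfrc was 47.2, 68.2 and 98.9 FPKM in the H3.1, H3.2 and H3t lines and 40.3 to 51.9 FPKM in the H3.3 type, with a log2 difference of -0.56 (95% interval -0.97 to -0.15, adjusted p = 0.162). Leaving out H3.1, the lowest of its type, gave -0.82 (adjusted p = 0.0339), while the other 12 of 13 alternatives gave no call. Over the 13 the difference ran from -0.82 to -0.29, with limma adjusted p values up to 0.460. The remaining 5 genes had adjusted p values of 0.261 and above.

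**Figure D4:**
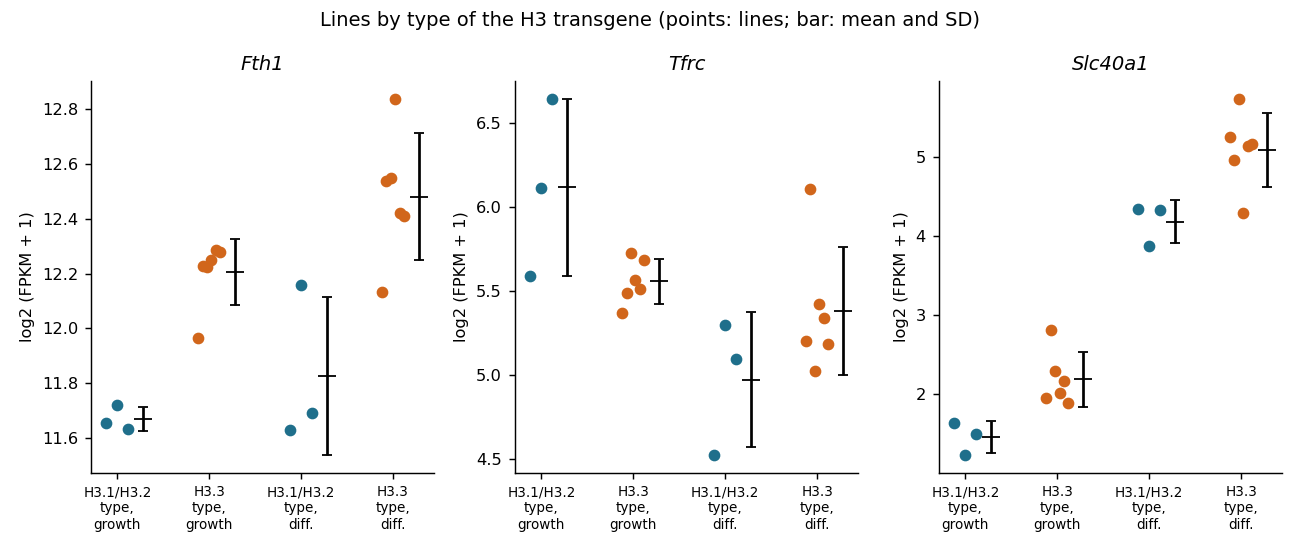
log2(FPKM + 1) of Fth1, Tfrc and Slc40a1 in lines of the H3.1/H3.2 type (3) and the H3.3 type (6) in each state, with points for lines and bars for the mean and SD. Fth1 and Slc40a1 do not overlap between types in growth, and the spread of each gene is wider after differentiation in at least 1 type.

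After differentiation none of the 8 genes was called between the types by limma. In this state 1 gene of 10878 was called (0.00919%, Cd80, named because it was the only one), and 1294 had an unadjusted p under 0.05. The log2 differences of Slc40a1 (0.91, 95% interval 0.31 to 1.51, adjusted p = 0.326) and Fth1 (0.66, 95% interval 0.20 to 1.11, adjusted p = 0.327) were of the same sign as in growth. Aco1 was 19.2 to 23.7 FPKM in the H3.1/H3.2 type and 14.1 to 18.5 FPKM in the H3.3 type, without overlap, as was so with the H3.1/H3.2 type higher for 2.95% of genes, and its difference was -0.38 (adjusted p = 0.336).

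The change with differentiation was then compared between the types within lines. Of 10931 genes, 3 were called (0.0274%: Ly6a, Ly6c1 and Ly6c2, named as the only ones), 1771 had an unadjusted p under 0.05, and none of the 8 was called. For Tfrc the mean change was -1.14 (SD 0.37, n = 3 lines) in the H3.1/H3.2 type and -0.18 (SD 0.45, n = 6 lines) in the H3.3 type. The difference of 0.97 (95% interval 0.36 to 1.57) had an adjusted p of 0.165 by limma. For Ftl1 the mean changes were -1.59 (SD 0.33) and -1.38 (SD 0.73), and their difference of 0.21 had a 95% interval from -0.68 to 1.10. For Slc40a1 they were 2.73 (SD 0.10) and 2.90 (SD 0.56), with an interval of the difference from -0.49 to 0.84.

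WT cells stood apart for several of these genes, with 1 library in each state and no test. The methods name TopHat only for reads of cells with a GFP-H3 transgene, while the submitters' notes list the same tools for WT, and the FPKM of all genes summed to 409319 and 465247 in WT against 583613 to 894105 in the lines. Ftl1 in WT was 1937 FPKM in growth and 444 after differentiation, which was 3.25 and 3.66 times lower than the lowest line and 5.30 and 7.67 times lower than the median. Of all tested genes 12.9% were below all lines in both states and 4.32% at least 2-fold below. Within WT, Ftl1 was also lower after differentiation, by 4.37-fold. Fth1 in WT was 3406 and 3350 FPKM and lay within the lines in both states, so the ratio of Ftl1 to Fth1 in WT was 0.569 and 0.132, below that of every line in the same state.

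That transcripts with many genomic copies are low in WT was known from these data when WT was set apart. The values below describe this relation over the table and do not test it. In 192 genes with at most 25% of their 31-base words found once, as Ftl1 was, the median of WT minus the median line was -2.32 in growth and -2.37 after differentiation on the log2(FPKM + 1) scale. It was -0.96 and -0.86 in 269 genes with 25% to 50%, -0.20 and -0.20 in 474 genes with 50% to 75%, 0.14 and 0.15 in 3008 genes with 75% to 99%, and 0.06 and 0.12 in 6206 genes above 99%. WT was below all lines in both states for 80.7% of the first group and 8.1% of the last. For Ftl1, which is in the first group, the value was -2.41 and -2.94. Whether the copies set the WT level of Ftl1 was not tested, and WT and the lines cannot be told apart from any difference in how their reads were handled.

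**Figure D5:**
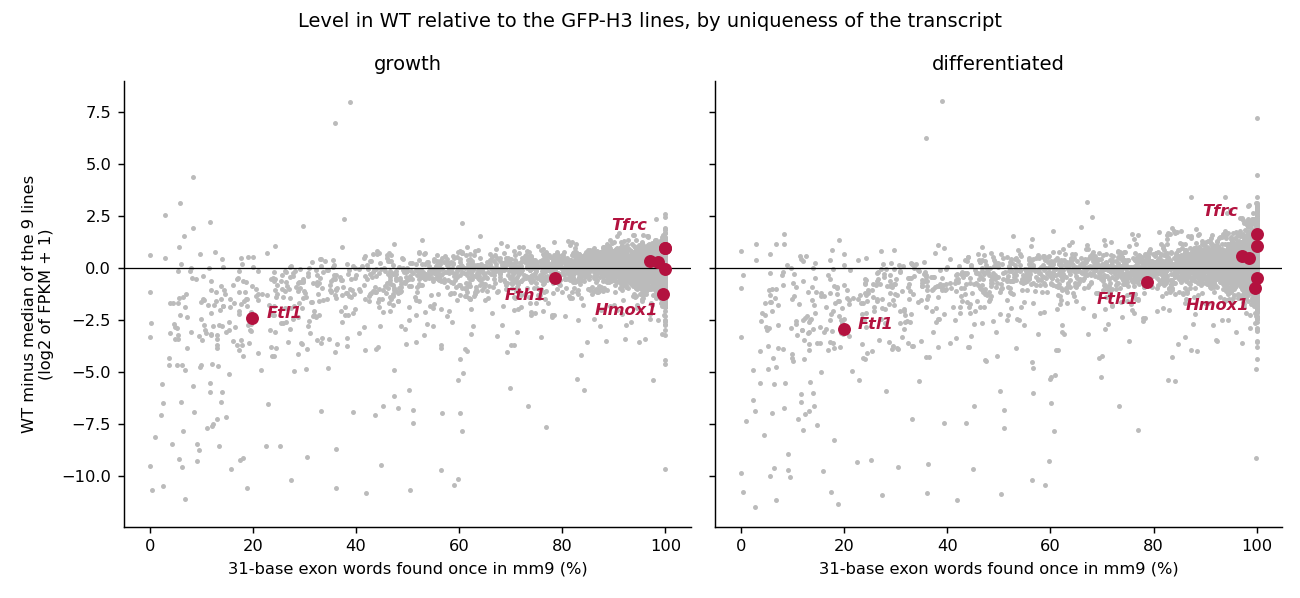
WT minus the median of the 9 lines on the log2(FPKM + 1) scale against the percent of 31-base exon words found once in mm9, in growth (left) and after differentiation (right), with 1 grey point for each expressed gene and the 8 iron handling genes in red. Ftl1 is at 19.9% and at -2.41 and -2.94, Fth1 at 78.7%, and the other 6 at 97.1% or more.

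The genes with unique sequence differed from the lines in WT in both directions. Hmox1 was 53.1 and 34.9 FPKM in WT, below all 9 lines in each state, as were 12.9% of genes. These values were 1.39 and 1.28 times less than the lowest line and 2.39 and 2.01 times less than the median line. Slc11a2 (26.2 and 40.1 FPKM), Ireb2 (26.4 and 31.6 FPKM) and Aco1 (26.2 and 27.02 FPKM) were above all lines in both states, a position that 12.9% of genes had. Tfrc in WT was 91.1 FPKM in growth, under the H3t line alone, and 112 FPKM after differentiation, above all lines, as were 22.2% of genes in that state. Slc40a1 was 2.69 and 21.5 FPKM in WT, within the lines, and thus 7.99-fold higher after differentiation.

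For each of the 8, the 3 genes with the most similar profile were sought among 6540 genes with a mean of at least 10 FPKM, by Pearson's r on log2(FPKM + 1) over the 18 GFP-H3 libraries. These share lines, libraries and the contrast of the states, and r is a description. Ftl1 was most like Sod1, which encodes the copper-zinc superoxide dismutase (r = 0.96), Clta (0.95) and Baiap2 (0.95). Fth1 was most like Ilkap (0.88), Fam96b, of cytosolic iron-sulfur assembly (0.86), and Abi3 (0.84). The genes nearest to Tfrc were Mphosph6 (0.91), Tomm70a, a receptor for mitochondrial import (0.90), and Prps1, of nucleotide synthesis (0.88). Those nearest to Slc11a2 included Selk (0.93) and Smim7 (0.93), and to Slc40a1 Cox7a2l (0.97), Map1lc3b (0.97) and Tmub2 (0.97). Slc40a1 is a gene with a large change between the states, and such genes reach a high r with each other. Ireb2 was nearest to Atrx (0.93), Ythdf3 (0.92) and Smim15 (0.91), and Aco1 to Pak1 (0.88), Pxdn (0.86) and Plekha2 (0.85). Hmox1 was nearest to Nfx1 (0.91), Nol12 (0.91) and Mrps18b (0.90). Ferritin's H and L genes were not in each other's lists, with r = -0.16 between them over the 18 libraries. Within a state, over 9 lines, r between them was 0.51 in growth and 0.08 after differentiation.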

How the data were processed

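The authors aligned the mRNA-Seq reads against mm9 by TopHat (TopHat2 2.0.8 in the submitters' processing notes, which also cover WT) and deposited FPKM values estimated by cuffdiff of Cufflinks 2.0.1 with default parameters. FPKM is scaled by transcript length and by mapped reads and keeps no depth, so read numbers are unknown and no counting interval was given. The 3′-seq, ChIP-seq and amplicon data were not analysed here. Genes with a mean of at least 1 FPKM were tested on log2(FPKM + 1) with limma 3.58.1 in R 4.3.3 (trend and robust settings), with Benjamini-Hochberg adjustment over all genes tested. A fold on this scale understates the change of low genes such as Slc40a1. The 2 libraries of a line come from the same line, and their deviations from the state means correlated at 0.206 to 0.445 in 9 of 9 lines. Words, near copies (blastn 2.17.0) and elements were taken from the mm9 genome and GENCODE vM1, with the longest coding transcript of each symbol (92.8% of tested genes matched). Elements of the 8 genes were sought in all of their coding transcripts. Named genes are the 8, up to 4 called genes with the largest difference in each list, and the 3 of highest r for each of the 8. Some genes named by this rule are not reported here. Nfe2l2, Bach1, Mafk and Ncoa4 were added after their values were seen. The 8 genes and all lists were chosen with earlier results of these data known. Alternatives covered the pseudocount, filters, scaling, limma settings, the block, WT, word length and leaving out each line. Values were plotted with matplotlib 3.10.9.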

Additional observations from a re-analysis of the deposited data

Results flagged for a closer look

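The level of each of the 8 genes in the 9 lines was tested for 1 line far from the rest in each state (16 groups). A single value passed: Ireb2 after differentiation was 26.1 FPKM in the H3t line, against 17.6 FPKM in the next line, and on the log2(FPKM + 1) scale, on which the test was made, the gap was 0.502 of the whole range, above Dixon's critical value for 9 lines. About 1 in 20 such groups is expected to pass by chance. The column of this library is headed H3mmT and was taken as the H3t line.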

How the results depend on the processing

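Each line and state had 1 library and no known depth, so no value has an error of its own. For the 8 genes, 142 of 152 alternative values between the states, 94 of 104 between types in growth, 103 of 104 between types after differentiation and 86 of 88 for the difference of changes kept direction and side of the threshold. With a log2 difference of at least 1 required, 962 genes were called higher and 937 lower between the states, and Tfrc and Slc11a2 were no longer called. Pairing the libraries of a line as a replicate block gave 3952 and 3628 calls and changed no call of the 8 but those of Fth1 (0.24) and Ireb2 (0.16). Signs changed, in values that were not called, for Fth1 between states with quantile normalization (-0.039), for Slc11a2 between types in growth without H3.1 or H3mm12 (-0.055 to 0.109 over lines left out), for Ireb2 between types after differentiation without H3t (-0.392 to 0.0144), and in the difference of changes for Ireb2 without H3.2 (-0.0348 to 0.174) and Slc40a1 with a pseudocount of 0.1 FPKM (-0.046). The causes were not tested. Leaving out 1 line gave 46 to 177 genes higher and 10 to 99 lower between types in growth, 0 to 2 higher and 0 to 2 lower after differentiation, and 0 to 7 higher and 0 to 31 lower for the difference of changes. Without a filter 4 were higher and 4 lower in growth, and the difference of changes gave 0 lower without the replicate block and 0 with a pseudocount of 0.1 FPKM. With words of 50 bases the share found once was 29.9% for Ftl1, 90.7% for Fth1, 98.7% for Aco1 and 100% for Slc11a2 and Hmox1. Centring each library at its median moved the WT position of no gene by more than the SD of the lines.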

Other observations

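Some genes of iron handling were below a mean of 1 FPKM over the lines and were not tested. Hephl1, a homologue of the ferroxidases ceruloplasmin and hephaestin, reached at most 0.204 FPKM in growing lines and 3.19 FPKM in differentiated lines, and was 0.0424 and 7.20 FPKM in WT. Hfe, a partner of the transferrin receptor, reached 0.816 FPKM in growth and 4.62 FPKM after differentiation among the lines, against 0.120 and 0.169 FPKM in WT. Hamp, which encodes hepcidin, the hormone that removes ferroportin from the cell surface, reached 0.312 FPKM in growth and was listed at 0 in all differentiated libraries.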
